A study of Mus musculus with 14 samples.

Results

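Potassium channel genes were examined in bulk RNA-seq of mouse plexiform neurofibroma (PN), a benign tumor of peripheral nerve. The members were all genes of the count table with a symbol that starts with Kcn, which gave 97 of 24062 genes. By name and known class, 40 encode voltage-gated pore subunits, 15 inward rectifiers, 14 tandem-pore leak channels, 8 pore subunits of the families activated by calcium or sodium (with *Kcnu1*, a relative gated by pH), and 17 auxiliary subunits, and 3 are noncoding or antisense rows. Of the 97 members, 80 passed the filter on low counts in at least 1 of 4 comparisons and 17 passed it in none, and 72 had at least 1 count in every library.

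Whole tissue from 14 libraries was compared: control dorsal root ganglia (DRGs) with nerve roots (n = 3, labelled DRG), slow-growing PNs (n = 5), and fast-growing PNs (n = 6). PN mice were DhhCre;Nf1fl/fl, in which the desert hedgehog promoter drives Cre in the Schwann cell (SC) lineage, and control mice were Nf1fl/fl, so the floxed alleles were shared by all groups and other cell types of a PN keep *Nf1*. All mice were on the same mixed background of C57BL/6, I-129 and FVBN, had no drug treatment, and were collected at 9 months by the study's methods. Growth was called by MRI at 7 and 9 months: a fast-growing PN gained more than 35 mm3 and a slow-growing PN changed by less than 5 mm3 over 2 months. By the study's methods its mice were of both sexes; the sex of each library and any batch were not given in the sources used here, and the labels do not state that the 3 controls came from separate mice, so p-values measure the spread between these libraries.

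Potassium channels let potassium flow out of cells and hold the membrane near its resting potential. In peripheral nerve, Kv1 channels of axons lie beneath the myelin next to the node of Ranvier, Kv7, Kv2 and Kv4 channels set the firing of sensory neurons, and inward rectifiers of glia take up potassium that axons release. Channels of the same family also serve muscle and vessels, where ATP-sensitive and leak channels set tone.

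Between 9596773 and 17594164 reads were counted per library, and 3 counts corresponded to 0.171 to 0.313 CPM (the count of a gene relative to the library's total, scaled by TMM factors). *Nf1*, of which whole tissue keeps transcripts from cells without Cre, had 129 to 227 CPM in controls, 225 to 294 in slow-growing and 225 to 276 in fast-growing PNs, and therefore did not check the labels. Fast-growing PN 1191 stood apart: the summed level of 12 neuron markers was 51.4 CPM in it and 1800 to 15500 CPM in the other 13 libraries, with the highest value in slow-growing PN 1203. The summed level of 15 skeletal muscle markers was 3850 to 15700 CPM in controls, 29.5 to 3690 in slow-growing and 79.4 to 2410 in fast-growing PNs, and that of 13 fat markers was 4250 to 6540, 23.4 to 3420 and 39.2 to 359 CPM. Markers of nonmyelinating SCs (7 genes) summed to 483 to 1240 CPM in controls, 2120 to 3720 in slow-growing and 3530 to 5060 in fast-growing PNs. In such tissue, fewer cells of a type and less RNA per cell cannot be told apart.

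The inward rectifiers held both a gene that rose with a large fold change and several that fell, so the promoters of 3 of them are shown: *Kcnj10*, which rose in fast-growing PNs, and *Kcnj8* and *Kcnj2*, which fell there. Each is the 250 bases before the gene start, 5′ to 3′ on the strand of the gene, from RefSeq on GRCm38.p6, without bases of a GENCODE exon. Capitals mark matches, on either strand, to 4 short letter strings that are known from many promoters. The first was an E-box with the letters CAGCTG. The second, a GC box, was searched as GGGCGGG. The third was the box with the letters CCAAT, which binds a widely expressed factor. The last, a core bound by SOX proteins such as those of SCs, was searched as ACAAAG. The windows lie at chr1:172340960-172341209 (plus strand) for *Kcnj10*, chr6:142571615-142571864 (minus strand) for *Kcnj8*, and chr11:111065914-111066163 (plus strand) for *Kcnj2*.
Kcnj10: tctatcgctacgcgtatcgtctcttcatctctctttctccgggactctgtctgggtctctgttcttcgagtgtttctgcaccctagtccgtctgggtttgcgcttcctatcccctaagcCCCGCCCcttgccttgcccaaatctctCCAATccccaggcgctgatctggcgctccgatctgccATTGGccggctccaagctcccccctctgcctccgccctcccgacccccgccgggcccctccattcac
Kcnj8: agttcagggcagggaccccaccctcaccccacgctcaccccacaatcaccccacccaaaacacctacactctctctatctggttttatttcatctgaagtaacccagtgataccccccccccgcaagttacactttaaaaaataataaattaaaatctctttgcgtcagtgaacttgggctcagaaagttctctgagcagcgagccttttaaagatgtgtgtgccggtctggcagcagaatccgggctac
Kcnj2: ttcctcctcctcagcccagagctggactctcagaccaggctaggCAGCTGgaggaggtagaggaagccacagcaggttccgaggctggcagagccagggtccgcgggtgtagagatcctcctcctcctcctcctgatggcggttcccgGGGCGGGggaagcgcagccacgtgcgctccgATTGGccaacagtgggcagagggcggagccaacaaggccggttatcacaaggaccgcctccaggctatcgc
The GC content of these windows was 62% for *Kcnj10*, 49.2% for *Kcnj8*, and 65.6% for *Kcnj2*. The *Kcnj10* window held 2 CCAAT matches and 1 GC box, the *Kcnj2* window 1 match each to the E-box, the GC box, and CCAAT, and the *Kcnj8* window none of the 4 letter strings. Of 32851 RefSeq promoter windows of this length, 13% held the E-box, 23.4% the GC box, 33.8% the CCAAT box, and 16.5% the SOX core. In 97 windows of 71 members that could be matched, the shares were 22.7%, 26.8%, 29.9%, and 11.3%. A match is a description of the letters and no evidence of binding.

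In PNs as a whole, 14 of 80 tested members passed edgeR's quasi-likelihood test at a Benjamini-Hochberg adjusted p under 0.05, 10 higher and 4 lower than in controls. Over all 16283 tested genes, 26.3% passed, 12.9% higher and 13.4% lower, so the share of members that passed (17.5%) was below that of all genes. The members that rose were *Kcna1*, *Kcna2*, *Kcna6*, *Kcnh8*, *Kcnj10*, *Kcnk2*, *Kcnk10*, *Kcnk13*, *Kcnt2*, and *Kcnq1ot1*, and those that fell were *Kcnj8*, *Kcnj14*, *Kcnk3*, and *Kcna7*. The median log2 fold change over tested members was 0.58, beside 0.10 over all genes. It was 0.21 by limma-voom, 0.22 with a score of neuron markers as a covariate, 1.03 with scores of muscle and fat markers, 0.96 without control DRG3, and 0.39 to 0.65 without any other library. Groups did not overlap for 10 tested members (7 higher and 3 lower), or 12.5%, beside 17.6% of all genes (8.51% higher and 9.13% lower).

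When the 5 slow-growing PNs alone were set against the controls, 6 of 77 tested members passed (7.79%, beside 11.3% of all genes). *Kcna1*, *Kcna2*, *Kcna6*, and *Kcnq1ot1* were higher, beside 4.12% of all genes, and *Kcnj8* and *Kcne4* were lower, beside 7.13%. For the 6 fast-growing PNs, 17 of 79 tested members passed (21.5%, beside 31.4% of all genes, of which 14.8% were higher and 16.7% lower). Of these 17, 10 were higher, *Kcna1*, *Kcna2*, *Kcna6*, *Kcnh8*, *Kcnj10*, *Kcnk2*, *Kcnk13*, *Kcnma1*, *Kcnn4*, and *Kcnq1ot1*, and 7 were lower, *Kcnj2*, *Kcnj8*, *Kcnj11*, *Kcnj14*, *Kcnj15*, *Kcnk3*, and *Kcna7*. Both comparisons use the same 3 controls. In all, 20 members passed in at least 1 comparison with controls. Counts of calls changed with the control libraries: without control DRG4 or DRG5, 9 and 7 members passed in all PNs and 1 and 1 in slow-growing PNs, and without DRG3, 13 and 10 passed. Over all genes the shares fell as well without DRG4 or DRG5, to 14.9% and 12.5% in all PNs and to 4.27% and 3.74% in slow-growing PNs.

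**Figure D1:**
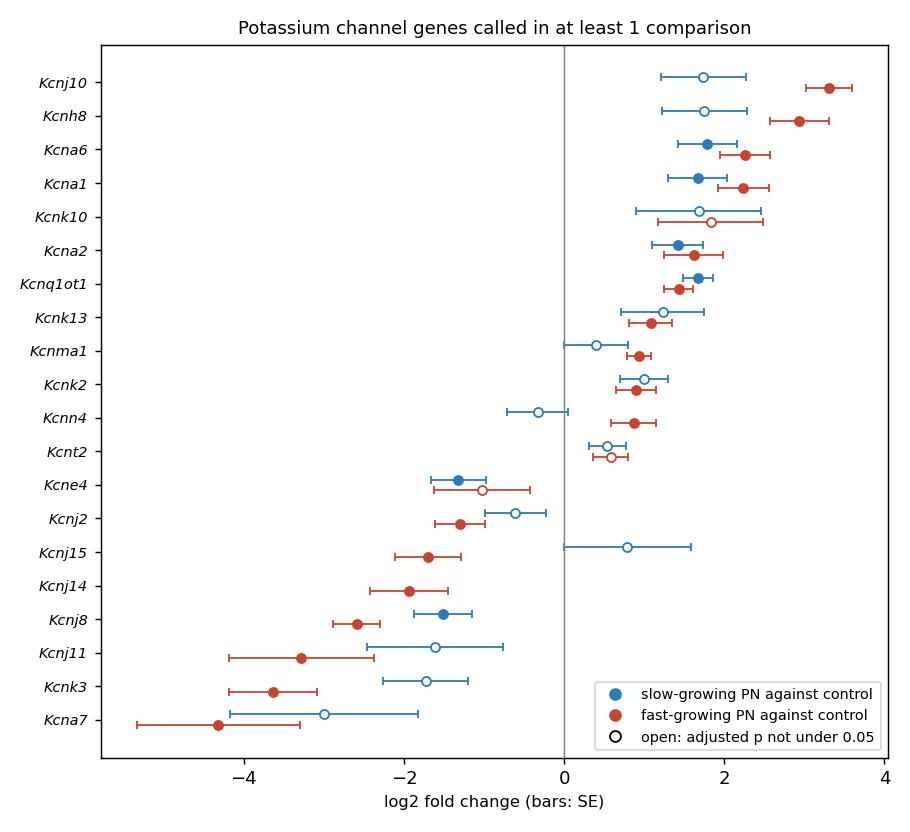
Log2 fold change of the 20 members that passed in at least 1 comparison, for slow-growing (blue) and fast-growing (red) PNs against the same 3 controls; bars are SE and open points did not pass. *Kcnj10* has the largest rise in fast-growing PNs (3.31) and *Kcna7* the largest fall (-4.32), and *Kcnj14* was not tested in slow-growing PNs.

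Among voltage-gated pore subunits, 4 of 36 tested members rose in PNs and 1 fell, where 12.9% of all genes rose and 13.4% fell. *Kcna1*, *Kcna2*, and *Kcna6* encode Kv1 subunits that join into the channels found along axons. *Kcna1* and *Kcna6* are neighbors at chr6:126640397-126646384 and chr6:126708329-126740674, both on the minus strand, and *Kcna2* lies at chr3:107101146-107115005 on the plus strand (GRCm38, GENCODE). An annotated gene on the opposite strand (*Gm26673*) overlaps exons of *Kcna6*, and since the strand setting of the counting is not given in the sources used here, its reads cannot be told apart from those of *Kcna6*.

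*Kcna1* measured 703, 330, and 264 CPM in the 3 controls, 1640, 1520, 1300, 1030, and 1640 CPM in slow-growing PNs, and between 1770 and 2640 CPM, with a median of 2100, in fast-growing PNs. Every PN was above every control, and every fast-growing PN was above every slow-growing PN. The log2 fold change of *Kcna1* by edgeR was 2.05 (SE 0.34, adjusted p = 0.000637) in all PNs, 1.67 (SE 0.37, adjusted p = 0.0248) in slow-growing PNs, and 2.24 (SE 0.32, adjusted p = 0.000764) in fast-growing PNs.

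For *Kcna2*, the controls had 576, 302, and 225 CPM, slow-growing PNs 1090, 967, 851, 1030, and 1150 CPM, and fast-growing PNs 763 to 1830 CPM with a median of 1100. The PNs lay above the controls without overlap, whereas slow-growing and fast-growing PNs overlapped. The log2 fold change of *Kcna2* was 1.57 in all PNs (SE 0.32, edgeR adjusted p = 0.00253).

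*Kcna6* was at 66.2, 28.2, and 25.2 CPM in controls, at 116, 193, 106, 162, and 136 CPM in slow-growing PNs, and at 152 to 234 CPM (median 202) in fast-growing PNs. No PN overlapped a control, and the log2 fold change in all PNs was 2.10 (SE 0.33, edgeR adjusted p = 0.000416). In slow-growing PNs, the calls of *Kcna1*, *Kcna2*, and *Kcna6* were each lost without control DRG4 or DRG5, that of *Kcna1* also without PN 1206, and that of *Kcna2* also without PN 1079 or 1206, with adjusted p up to 0.118, 0.128, and 0.0879 when a library was left out.

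*Kcnh8*, which encodes a voltage-gated subunit of the ether-a-go-go-like class, was lower in level. Controls measured 5.57, 3.02, and 1.88 CPM, slow-growing PNs 9.26, 23.8, 5.92, 10.1, and 12.1 CPM, and fast-growing PNs 22.3 to 42.2 CPM with a median of 25.5. Only slow-growing PN 1198A reached the range of the fast-growing PNs. The log2 fold change was 2.94 in fast-growing PNs (SE 0.37, edgeR adjusted p = 0.000414) and 1.75 in slow-growing PNs, which did not pass (SE 0.53, adjusted p = 0.0672). *Kcna7*, a Kv1 subunit of muscle, is described below with the genes that fell.

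Markers of nonmyelinating SCs were also higher in PNs: 6 of 7 passed by edgeR, and their sum in every PN was above every control. Within slow-growing PNs the order differed by gene. PN 1079 had the lowest sum (2120 CPM) and *Kcna1* at 1640 CPM, and PN 1203 had a sum of 3460 CPM and the lowest *Kcna1* (1030 CPM). *Kcna2* was highest in PN 1206 (sum 2320 CPM), and *Kcna6*, *Kcnh8*, and *Kcnj10* in PN 1198A, which had the highest sum (3720 CPM). None of 12 neuron markers passed in either direction. The part of the SC composition in the rise of *Kcna1*, *Kcna2*, *Kcna6*, *Kcnh8*, and *Kcnj10* was not tested.

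**Figure D2:**
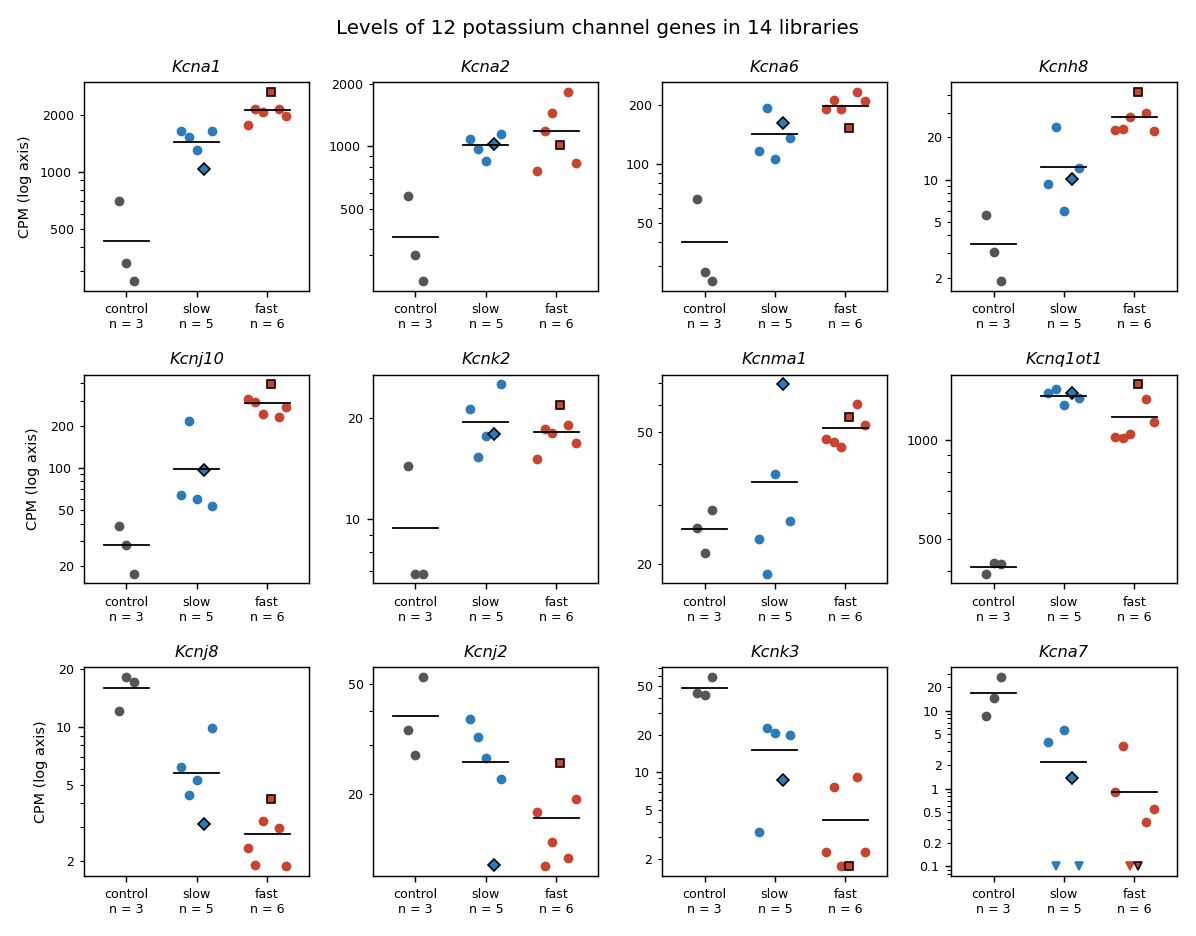
CPM (log axis) of 12 members in each library of the 3 groups; lines are group means, the square is fast-growing PN 1191, the diamond is slow-growing PN 1203, and triangles at the lower edge are libraries with 0 counts. For the first 6 members and for *Kcnq1ot1*, every PN lies above every control, while *Kcna7* falls from 8.49 to 27.4 CPM in controls to 0 to 3.55 CPM in fast-growing PNs.

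Of the inward rectifiers, 1 of 12 tested members rose and 2 fell in all PNs, and 1 rose and 5 fell in fast-growing PNs. The shares over all genes were 12.9% higher and 13.4% lower in all PNs, and 14.8% and 16.7% in fast-growing PNs. *Kcnj10* (chr1:172341210-172374085, plus strand) encodes the main inward rectifier of glia, including satellite glia around sensory neurons. The sum of 7 satellite glia markers was 1210 to 1440 CPM in controls, 990 to 1760 CPM in slow-growing and 1340 to 1740 CPM in fast-growing PNs, with 2 markers higher and 1 lower in all PNs. *Kcnj10* itself measured 38.4, 28.3, and 17.5 CPM in controls, 63.6, 217, 59.6, 95.8, and 53.5 CPM in slow-growing PNs, and 232 to 394 CPM (median 282) in fast-growing PNs. The 3 groups did not overlap, and slow-growing PN 1198A was far above the other slow-growing PNs. The log2 fold change of *Kcnj10* by edgeR was 3.31 (SE 0.29, adjusted p = 5.85e-05) in fast-growing PNs and 1.74 (SE 0.53, adjusted p = 0.0694) in slow-growing PNs, which did not pass. Over all PNs it was 2.84 (SE 0.68, adjusted p = 0.00768), and this call was lost without control DRG5 (adjusted p = 0.0551).

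*Kcnj8* encodes the pore of the ATP-sensitive channel of pericytes and smooth muscle. Its level was 12.1, 18.2, and 17.2 CPM in controls, 6.15, 4.43, 5.31, 3.11, and 9.83 CPM in slow-growing PNs, and 1.88 to 4.23 CPM (median 2.66) in fast-growing PNs. Every PN was below every control, and slow-growing PN 1206 was the closest to the controls. By edgeR, the log2 fold change was -1.96 (SE 0.39, adjusted p = 0.00208) in all PNs, -1.51 (SE 0.36, adjusted p = 0.0325) in slow-growing and -2.59 (SE 0.29, adjusted p = 0.000203) in fast-growing PNs. The sum of 8 pericyte and smooth muscle markers was 935 to 1100 CPM in controls, 163 to 1070 CPM in slow-growing PNs, where PN 1206 had the highest value, and 167 to 305 CPM in fast-growing PNs. Of these 8 markers, 3 passed as lower and 0 as higher in all PNs by edgeR. The part of pericytes and smooth muscle in the fall of *Kcnj8* was not tested. In slow-growing PNs, 5 of 8 fits that left out a library lost the call (control DRG4 or DRG5, or PN 1079, 1198A, or 1202), with adjusted p up to 0.131.

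*Kcnj11* encodes the pore of the ATP-sensitive channel of skeletal muscle and of some neurons. It measured 4.12, 5.41, and 9.80 CPM in controls, 2.13, 0.150, 5.31, 3.02, and 0.482 CPM in slow-growing PNs, and 0 to 1.77 CPM (median 0.618) in fast-growing PNs. The level fell in fast-growing PNs (log2 fold change -3.28, SE 0.91, edgeR adjusted p = 0.0217), in which it did not overlap the controls, and the call was lost without control DRG4, control DRG5, or fast-growing PN 1179 (adjusted p 0.0523, 0.106, and 0.05).

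*Kcnj2*, a classical strong inward rectifier of muscle and endothelium, was 34.1, 27.6, and 53.2 CPM in controls, 37.3, 32.2, 27.0, 11, and 22.7 CPM in slow-growing PNs, and 10.9 to 25.9 CPM (median 15.2) in fast-growing PNs. Fast-growing PNs were all below the controls (log2 fold change -1.30, SE 0.31, edgeR adjusted p = 0.0116), whereas 2 slow-growing PNs lay within the control range. The call for *Kcnj2* was lost without control DRG5 (adjusted p = 0.0702). The sum of 8 endothelial markers was 398 to 533 CPM in controls, 110 to 510 CPM in slow-growing and 150 to 366 CPM in fast-growing PNs, and 3 of 8 passed as lower in all PNs. The part of these cells in the fall of *Kcnj2* was not tested.

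*Kcnj15*, another inward rectifier, spread most widely in slow-growing PNs. Controls had 23.3, 14.9, and 14.9 CPM, slow-growing PNs spread from 4.85 to 77.6 CPM with a median of 29.0, and fast-growing PNs had 3.62 to 12.8 CPM with a median of 4.5. Its fall in fast-growing PNs passed (log2 fold change -1.70, SE 0.41, edgeR adjusted p = 0.0115), and the highest fast-growing value was in PN 1191. The call was lost in the fit over all 14 libraries (log2 fold change -1.66, adjusted p = 0.0709). An annotated gene (*Gm49643*) overlaps *Kcnj15* on the opposite strand.

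*Kcnj14* fell in all PNs (log2 fold change -1.63, SE 0.52, edgeR adjusted p = 0.0307), at levels near the depth limit. It measured 3, 0.825, and 0.834 CPM in controls and 0.193 to 1.52 CPM in PNs, so the ranges overlapped. Its call was lost without control DRG3 (adjusted p = 0.382 in all PNs and 0.112 in fast-growing PNs), and in all PNs also with offsets for transcript length and GC content (adjusted p = 0.0544). Over the alternatives and left-out libraries its log2 fold change was -1.98 to -0.73 in all PNs and -2.24 to -0.84 in fast-growing PNs.

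Tandem-pore channels carry the leak current that sets the resting potential. Of 9 tested, 3 rose in all PNs and 1 fell, where 12.9% of all genes rose and 13.4% fell. *Kcnk2*, a leak channel gated by stretch and heat, measured 14.4, 6.87, and 6.88 CPM in controls, 21.3, 15.3, 17.7, 18.0, and 25.3 CPM in slow-growing PNs, and 15.1 to 21.9 CPM (median 18.4) in fast-growing PNs. PNs and controls did not overlap, although control DRG3 came within 1 CPM of the lowest PN, and the log2 fold change was 0.99 (SE 0.23, edgeR adjusted p = 0.00622). Without control DRG4 or DRG5 this call was lost, with adjusted p up to 0.0552 in all PNs and 0.0936 in fast-growing PNs.

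*Kcnk10*, a relative of *Kcnk2*, was at 1.89, 0.733, and 0.104 CPM in controls and at 1.35 to 5.52 CPM in PNs (log2 fold change 1.80, SE 0.62, edgeR adjusted p = 0.0453). *Kcnk13* was at 2.49, 2.02, and 2.08 CPM in controls and at 2.04 to 9.07 CPM in PNs (log2 fold change 1.20, SE 0.40, edgeR adjusted p = 0.0412). Both sets of ranges overlapped, and the calls held in only 4 and 7 of 14 fits that each left out a library, with adjusted p up to 0.164 and 0.147. By limma-voom neither passed (adjusted p = 0.0567 and 0.102). *Kcnk10* was also lost without a filter on low counts (edgeR adjusted p = 0.0508) and with offsets for transcript length and GC content (0.0712). Its log2 fold change was 2.9 without control DRG3 and 1.3 without control DRG5. In fast-growing PNs *Kcnk13* passed without overlap with controls (log2 fold change 1.08, SE 0.27, edgeR adjusted p = 0.0129). That call was lost without control DRG4 or DRG5 (adjusted p up to 0.0558) and in the fit over all 14 libraries.

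*Kcnk3* (chr5:30588170-30625271, plus strand), an acid-sensitive leak channel known from neurons, vessels, and brown fat, fell. It measured 43.6, 42.5, and 59.3 CPM in controls, 3.27, 23.0, 20.7, 8.70, and 20.1 CPM in slow-growing PNs, and 1.74 to 9.2 CPM (median 2.29) in fast-growing PNs. Every PN was below every control, and 3 of 5 slow-growing PNs lay at about the same intermediate level. The log2 fold change by edgeR was -2.43 (SE 0.68, adjusted p = 0.0169) in all PNs and -3.64 (SE 0.55, adjusted p = 0.00104) in fast-growing PNs. In slow-growing PNs the 3 libraries at the intermediate level, 1198A, 1202, and 1206, also had the highest fat marker sums (2010, 2130, and 3420 CPM). PNs 1079 and 1203 had fat sums of 246 and 23.4 CPM and *Kcnk3* at 3.27 and 8.70 CPM. In fast-growing PNs, PN 1191 had the highest fat sum (359 CPM) and the lowest *Kcnk3* (1.74 CPM). In the other 5, PNs 1214, 1071, 1053, 1179, and 1216, the fat sums were 249, 91, 84.1, 43.8, and 39.2 CPM. Their *Kcnk3* levels, in the same order, were 9.2, 7.64, 2.29, 1.76, and 2.29 CPM. In all PNs, 5 of 13 fat markers passed as lower. Without control DRG5, the call of *Kcnk3* in all PNs was lost (adjusted p = 0.0822), and that in fast-growing PNs was not lost without any library. The part of fat in the fall of *Kcnk3* was not tested within the growth groups. A gene on the opposite strand (*Gm9899*) overlaps *Kcnk3*, as is the case for *Kcnk2* (*A430027H14Rik*), *Kcnma1* (*4930519K11Rik*), *Kcnt2* (*4930590L20Rik*), and the partner gene *Abcc9* (*5330439B14Rik*).

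*Kcna7* (chr7:45405653-45409763, plus strand) measured 8.49, 14.8, and 27.4 CPM in controls, 3.95, 0, 5.72, 1.37, and 0 CPM in slow-growing PNs, and 0 to 3.55 CPM (median 0.454) in fast-growing PNs. Every PN was below every control, with a log2 fold change of -3.53 in all PNs (SE 1.05, edgeR adjusted p = 0.0230) that was lost without control DRG4 or DRG5 (adjusted p up to 0.136). In fast-growing PNs it was -4.32 (SE 1.02, edgeR adjusted p = 0.0106), lost without control DRG5 (adjusted p = 0.0572). The skeletal muscle sum in the same order was 3850, 8870, and 15700 CPM in controls and 3520, 29.5, 3690, 1120, and 57.3 CPM in slow-growing PNs, with the lowest sums in the PNs with 0 counts of *Kcna7*. In fast-growing PNs, PNs 1071 and 1053 had the highest muscle sums (2410 and 299 CPM) and the highest *Kcna7* (52 and 16 counts). The order of the other fast-growing PNs differed: PNs 1179 and 1191, with sums of 135 and 244 CPM, had 0 counts of *Kcna7*, whereas PNs 1214 and 1216, with 117 and 79.4 CPM, had 5 and 8 counts. In all PNs 9 of 15 muscle markers passed as lower.

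**Figure D3:**
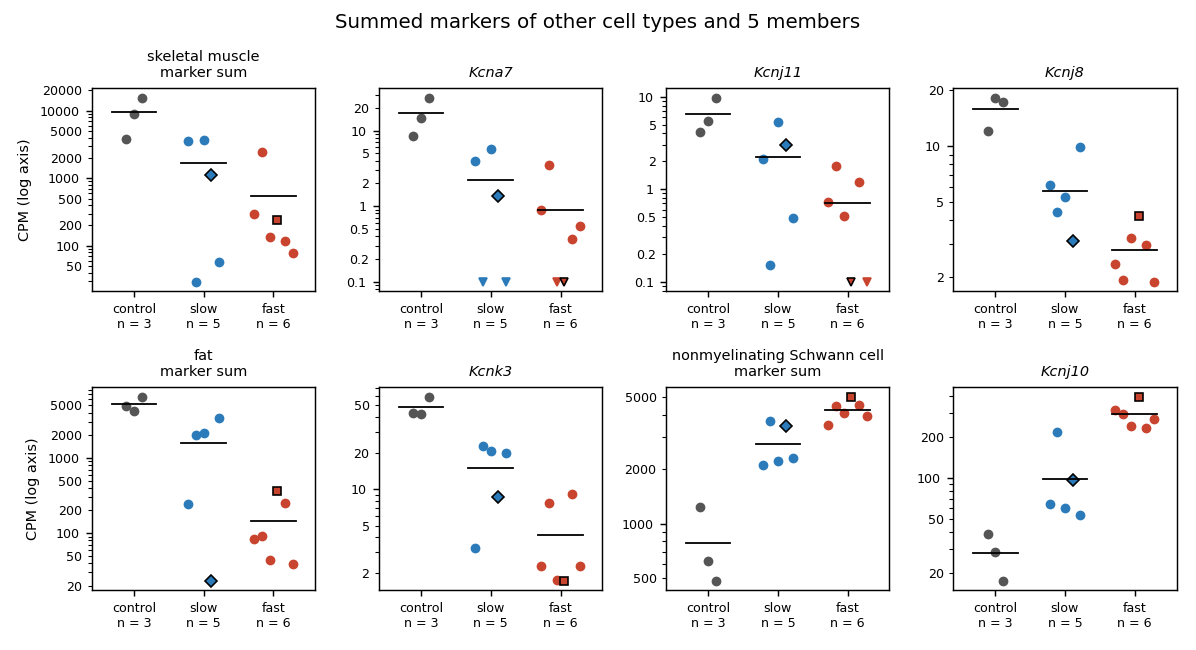
CPM (log axis) per library of the summed skeletal muscle, fat, and nonmyelinating SC markers and of 5 members; lines are group means, the square is fast-growing PN 1191, the diamond is slow-growing PN 1203, and triangles are 0 counts. Skeletal muscle sums lie at 3850 to 15700 CPM in controls and at 29.5 to 3690 CPM in PNs, and *Kcna7* is lower in every PN than in every control.

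When the skeletal muscle and fat scores were added to the edgeR model as covariates, 1 member (*Kcnq1ot1*) passed in all PNs and 0 in either growth group. In the same fit, 10, 3, and 7 members had an unadjusted p under 0.05. No share over all genes at that unadjusted threshold is given beside them, so these counts are not read as a result about the members. That fit called 470 of 16283 genes in all PNs and 0 of all genes in either growth group. Under it, the log2 fold change in fast-growing PNs turned to 0.19 for *Kcnk3* (SE 1.73), 1.51 for *Kcnj11* (SE 3.73), and 0.16 for *Kcnj15* (SE 1.11), and that of *Kcnn4* became 0.15 (SE 0.88). In fast-growing PNs the rises of *Kcna1* (2.36), *Kcnh8* (3.40), and *Kcnj10* (3.65) were as large as without the scores but had a larger SE (1.01, 0.98, and 0.92). In all PNs, *Kcnh8* went from 2.55 to 0.61, *Kcnj10* from 2.84 to 0.68, *Kcna6* from 2.10 to 1.15, *Kcnk13* from 1.20 to 0.57, *Kcnk3* from -2.43 to -0.29, *Kcna7* from -3.53 to -0.96, *Kcnj8* from -1.96 to -0.76, and *Kcnj14* from -1.63 to -1.07. The muscle and fat sums of the controls lie above those of every PN, so the content of muscle and fat and the difference between controls and PNs cannot be told apart for these members.

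Among the 8 pore subunits of the families activated by calcium or sodium, 1 rose in all PNs and 2 rose in fast-growing PNs, where 12.9% and 14.8% of all genes rose. *Kcnma1* encodes the large-conductance calcium-activated channel. It was at 25.6, 21.6, and 29.1 CPM in controls, at 23.8, 18.7, 37.4, 69.3, and 26.9 CPM in slow-growing PNs, and at 44.8 to 60.6 CPM (median 49.9) in fast-growing PNs. Fast-growing PNs were all above the controls (log2 fold change 0.93, SE 0.15, edgeR adjusted p = 0.00159), whereas slow-growing PNs overlapped both. The sum of 8 fibroblast markers was 2030 to 3870 CPM in controls, 1310 to 6140 CPM in slow-growing and 6440 to 12400 CPM in fast-growing PNs. In all PNs 0 of these markers passed, and their part in the rise of *Kcnma1* was not tested.

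*Kcnn4* encodes the intermediate-conductance channel of immune and other non-excitable cells. It measured 8.57, 14.3, and 16.6 CPM in controls, 9.49, 19.9, 8.07, 7.23, and 9.73 CPM in slow-growing PNs, and 15.1 to 32.5 CPM (median 26.5) in fast-growing PNs. In fast-growing PNs it rose (log2 fold change 0.87, SE 0.28, edgeR adjusted p = 0.0416), with overlap with the controls, and 6 of 9 fits that left out a library lost the call (control DRG3 or DRG4, or PN 1053, 1071, 1179, or 1191), with adjusted p up to 0.113. The fit over all 14 libraries also lost it (adjusted p = 0.0513), as did the fit with offsets for transcript length and GC content. The sum of macrophage markers, a cell type that uses this channel, was 162 to 603 CPM in controls and 254 to 752 CPM in fast-growing PNs. In slow-growing PNs it was 52.1 to 460 CPM, with the highest sum in PN 1198A. The part of these cells was not tested.

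*Kcnt2*, a sodium-activated channel, was at 12.1, 8.15, and 9.80 CPM in controls and at 10.7 to 19.6 CPM in PNs, with a log2 fold change of 0.61 (SE 0.20, edgeR adjusted p = 0.0407) that held in 6 of 14 fits without a library, with adjusted p up to 0.202. It was also lost by limma-voom (adjusted p = 0.0657) and, at a log2 fold change of 0.20, with offsets for transcript length and GC content (adjusted p = 0.452). Its relative *Kcnt1* had 21.9 ± 13.9 CPM (SD, n = 3) in controls and 72.1 ± 55.2 CPM (n = 11) in PNs, with a log2 fold change of 1.70 that did not pass (SE 0.66, edgeR adjusted p = 0.0706).

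None of 14 tested auxiliary subunits passed in all PNs or in fast-growing PNs by edgeR, and 1 of 13 passed in slow-growing PNs, where 26.3%, 31.4%, and 11.3% of all genes passed. At an unadjusted p under 0.05, for which no share over all genes is given here, there was 1 in all PNs and 0 in fast-growing PNs. The gene called in slow-growing PNs, *Kcne4*, encodes a small membrane subunit that inhibits several voltage-gated channels. It measured 2.92, 3.57, and 4.27 CPM in controls and 1.44, 1.43, 1.53, 0.916, and 2.12 CPM in slow-growing PNs (log2 fold change -1.32, SE 0.34, edgeR adjusted p = 0.0418), and 6 of 8 fits without a library lost the call, with adjusted p up to 0.189. The call was also lost in 5 of 9 alternatives, with adjusted p of 0.0659 without a filter on low counts, 0.115 in the fit over all 14 libraries, 0.972 with muscle and fat scores, 0.0687 with the neuron score, and 0.0515 with offsets for transcript length and GC content. *Kcnab2*, the cytoplasmic beta subunit of Kv1 channels, was at 105 ± 58.9 CPM (SD, n = 3) in controls and 139 ± 93.7 CPM (n = 11) in PNs, with a log2 fold change of 0.38 (SE 0.67, adjusted p = 0.705).

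*Kcnq1ot1* encodes no channel. It is the imprinted noncoding RNA read from within *Kcnq1* on the opposite strand (chr7:143203458-143296549, minus strand). The controls had 392, 422, and 420 CPM, slow-growing PNs 1380, 1420, 1270, 1380, and 1340 CPM, and fast-growing PNs 1010 to 1470 CPM with a median of 1080. Controls and PNs were far apart, with little spread within the groups. The log2 fold change was 1.59 (SE 0.17, edgeR adjusted p = 2.06e-05) in all PNs, and this was the only member called in all PNs under every alternative run. In slow-growing PNs its log2 fold change was 1.67, and 1.59 to 1.74 over the alternatives and left-out libraries. Its call there was lost with per-library offsets for transcript length and GC content (1.74, adjusted p = 0.0509) and with the muscle and fat scores (1.59, adjusted p = 0.41). Its annotated transcript of 93092 bases is the longest of the members and overlaps *Kcnq1*, so reads of the overlapping genes cannot be told apart where strand was not used.

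Levels were compared between genes only as CPM per kilobase of the longest GENCODE transcript, for the 94 members that are no noncoding or antisense rows. On that scale *Kcna1* ranked 1 and *Kcna2* ranked 2 of these 94 in all 3 groups. *Kcna1* was at 107 ± 58.7 (SD, n = 3) in controls, 354 ± 64.9 (n = 5) in slow-growing PNs, and 526 ± 71.7 (n = 6) in fast-growing PNs, in CPM per kilobase. *Kcnj10* ranked 17 in controls (5.19 ± 1.93), held rank 8 among the slow-growing PNs (18.1 ± 12.7), and had rank 3 among fast-growing PNs (53.7 ± 11). Together, *Kcna1*, *Kcna2*, and *Kcna6* made up 29.0% to 38.3% of the summed level of the 94 per library in controls, 27.9% to 62.8% in slow-growing PNs, and 54.4% to 79.4% in fast-growing PNs. The lowest share was in slow-growing PN 1203 and the highest in fast-growing PN 1191. A share also depends on the levels of the other members. The summed level of the 94 was 1330 CPM per kilobase in PN 1203, the highest of the 14 libraries, and 968 in PN 1191.

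**Figure D4:**
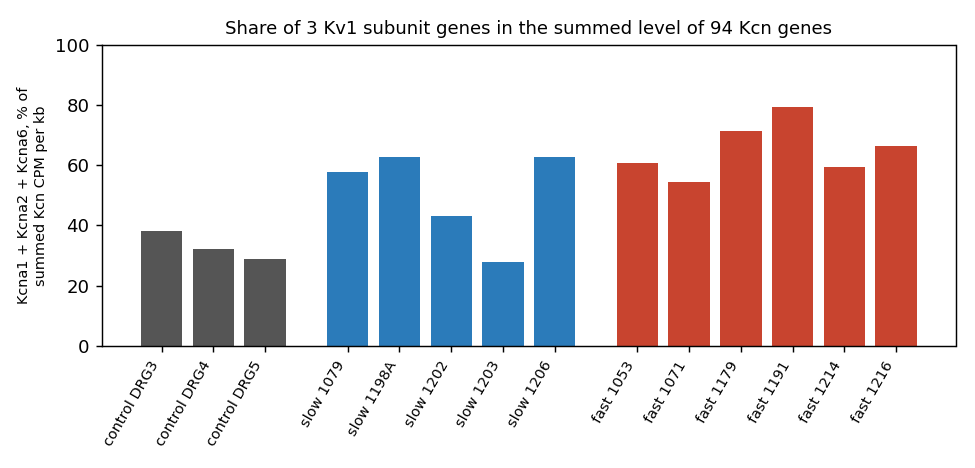
Share of *Kcna1*, *Kcna2*, and *Kcna6* in the summed CPM per kilobase of 94 members (without the 3 noncoding or antisense rows), in percent, 1 bar per library. Controls lie between 29.0% and 38.3%, fast-growing PNs between 54.4% and 79.4%, and slow-growing PN 1203 at 27.9%.

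In fast-growing PN 1191, the library with few neuron transcripts, the members were divided. Of 64 members with a median of at least 2 CPM in the other 5 fast-growing PNs, 30 were below 25% of that median in PN 1191, 24 were at 75% or more, and 10 lay between. The 12 neuron markers were at 0.214% to 4.96%, and 13 members were at or below 4.96%. As this is 1 library, the values are descriptions with exact Poisson intervals (95%, counting error only), and no test was made. The counts describe these members only, as no share over all genes is given beside them. The filter used the other 5 fast-growing PNs alone, so it leaves out members with counts mainly in PN 1191.

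Some voltage-gated channels of neurons were nearly absent from PN 1191. *Kcnh7*, an ether-a-go-go channel subunit, stood at 0.796% of the other fast-growing median (interval 0.292% to 1.73%), and *Kcnb2*, a Kv2 subunit of neurons, at 1.62% (0.741% to 3.07%). Members at intermediate depletion included *Kcnab2* (7.25%), *Kcnip4* (11.4%), and *Kcnd3* (16.9%), the last of these a Kv4 subunit and *Kcnip4* a partner of it. These 3 intermediate members were above the 4.96% of the highest neuron marker.

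In contrast, *Kcna1* stood at 127% of the other fast-growing median in PN 1191 (126% to 129%), *Kcna2* at 86.0% (84.5% to 87.4%), and *Kcna6* at 71.8% (68.7% to 75%). *Kcnh8* was at 184%, *Kcnj10* at 145%, *Kcnk2* at 121%, *Kcnma1* at 117%, *Kcnt1* at 92.4%, and *Kcnk10* at 193%. The transcripts of *Kcna1*, *Kcna2*, and *Kcna6* were present in this library, whose neuron marker sum was 0.867% of the median of the other fast-growing PNs.

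By class, 21 of 29 voltage-gated pore subunits and 7 of 11 auxiliary subunits were below 25% in PN 1191. That was the case for 0 of 7 channels of the families activated by calcium or sodium, 1 of 8 tandem-pore channels, and 1 of 8 inward rectifiers. The tandem-pore exception was *Kcnk18*, a leak channel of sensory neurons, at 4.78% (0.986% to 14%), and the inward rectifier exception, *Kcnj3*, at 2.35% (0.0595% to 13.1%). Of the 17 members among these 64 that passed in a comparison with controls, 16 were at 75% or more in PN 1191, *Kcna6* lay between, and 0 were below 25%. These calls used PN 1191, and a library far below its group widens the spread of a gene, so they are not independent of this division. Without PN 1191, 17 members passed in fast-growing PNs (21.5%, beside 32.1% of all genes), 16 of them shared with the 17 above. The new call was *Kcnk18*, named after its values were seen, and the median over tested members (log2 fold change) became 0.42 in place of 0.25, while limma-voom with all libraries gave -0.04.

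**Figure D5:**
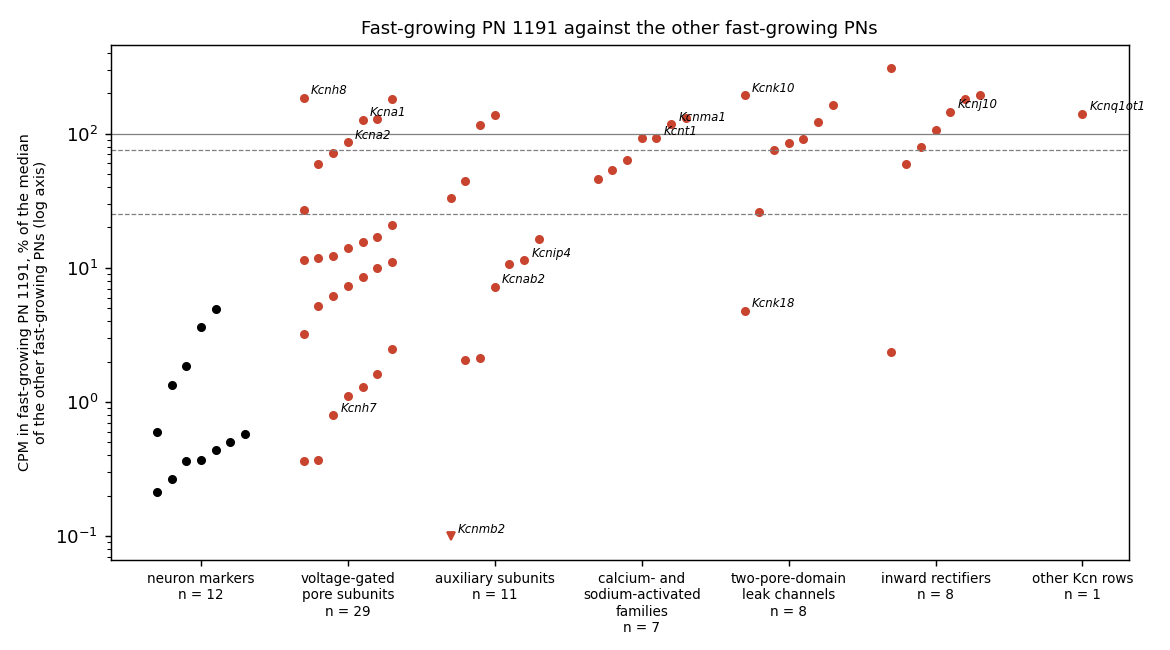
Level in fast-growing PN 1191 as a percent of the median of the other fast-growing PNs (log axis) for 12 neuron markers (black) and 64 members by class (red); lines mark 25%, 75%, and 100%, and the triangle is a member with 0 counts. Neuron markers lie at 0.214% to 4.96%, 21 of 29 voltage-gated pore subunits lie below 25%, and the upper members include *Kcna1* (127%), *Kcnj10* (145%), and *Kcnh8* (184%).

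Slow-growing PN 1203 had the highest neuron marker sum. Of the same 64 members, 36 had their highest level of all 14 libraries in PN 1203, and 36 had their lowest in PN 1191. They were not all the same members: *Kcnma1* and *Kcnq5* were highest in PN 1203 but not lowest in PN 1191. No share over all genes is given beside these counts either, so they describe these members only. The filter behind the 64 left PN 1191 out, as given above. *Kcnd3* ranged from 18.5 to 44.2 CPM in controls, from 34.9 to 308 CPM in slow-growing PNs, and from 10.4 to 154 CPM in fast-growing PNs. It had its highest value in PN 1203 and its lowest in PN 1191, and passed in no comparison by edgeR without a covariate.

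Between fast-growing and slow-growing PNs, 0 of 77 tested members passed by edgeR, while 1.27% of all genes did (0.802% higher and 0.466% lower). At an unadjusted p under 0.05 there were 11 members (14.3% of those tested, beside 20.4% of all genes). The closest to the threshold were *Kcnj10* (log2 fold change of fast over slow 1.57, SE 0.36, adjusted p = 0.0544), *Kcnn4* (1.22, SE 0.28, adjusted p = 0.0545), and *Kcnk1* (-1.62, SE 0.38, adjusted p = 0.0572). DESeq2 called 10 members (11.5%, beside 9.18% of all genes), limma-voom 0 (beside 0.22%), and an edgeR fit over all 14 libraries 3 (3.75%, beside 2.6%), which were *Kcnj10*, *Kcnj15*, and *Kcnn4*.

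Groups did not overlap for *Kcnj10* and *Kcna1*, both higher in fast-growing PNs, which is 2.6% of tested members beside 3.04% of all genes. The summed fibroblast markers did not overlap either (1310 to 6140 CPM in slow-growing and 6440 to 12400 CPM in fast-growing PNs). Summed markers of myelinating SCs were 6650 to 21500 CPM in slow-growing and 5330 to 9640 CPM in fast-growing PNs. The part of these cells was not tested. For *Kcna1* the log2 fold change of fast over slow was 0.57 (SE 0.17, edgeR adjusted p = 0.0902). *Kcnk1*, a tandem-pore channel with weak inward rectification, was at 88.4, 35.3, 101, 72.2, and 82.9 CPM in slow-growing PNs and at 7.11 to 39.4 CPM (median 26.2) in fast-growing PNs. Controls lay at 59.9, 21.9, and 17.4 CPM, so the slow-growing PNs were the high group apart from PN 1198A.

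Single libraries bore on these values. Without slow-growing PN 1198A, the highest of its group for *Kcnj10*, *Kcnn4*, *Kcnh8*, and *Kcna6*, 5 members passed: *Kcna6*, *Kcnh8*, *Kcnj10*, and *Kcnn4* higher and *Kcnk1* lower in fast-growing PNs. That is 6.49% of members, beside 7.65% of all genes in the same fit. Without slow-growing PN 1203, 2 passed (*Kcnma1* higher and *Kcnj15* lower), or 2.6% beside 3.7% of all genes, and without fast-growing PN 1071, 1 passed (*Kcnk1*), or 1.35% beside 2.43%. The median log2 fold change of tested members was -0.61, with 15 of 77 above 0, beside -0.03 over all genes. It was -0.13 without PN 1203, -0.40 without PN 1191, and -0.08 with the neuron marker score as a covariate.

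In fast-growing PNs against controls, the neuron score as a covariate raised the count of members from 17 to 27, with 17 shared, and in all PNs from 14 to 22, with 14 shared. Calls over all genes rose as well, to 38.5% in fast-growing PNs and 33.7% in all PNs, so the members' shares (34.2% and 27.5%) remained below those of all genes. The added genes in all PNs were *Kcnd1*, *Kcnd3*, *Kcnip3*, *Kcnj11*, *Kcnk18*, *Kcnt1*, *Kcnu1*, and *Kcnv1*, of which *Kcnj11* also passed in fast-growing PNs without the score.

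Partners of these channels outside the Kcn symbols were read from a list of 31 genes, of which 27 were tested in all PNs. By edgeR, 3 passed as higher and 2 as lower, beside 12.9% and 13.4% of all genes. *Lgi4*, a secreted SC protein with relatives that anchor Kv1 channels, had 28.7 ± 15.1 CPM (SD, n = 3) in controls, 132 ± 111 CPM (n = 5) in slow-growing and 264 ± 26.5 CPM (n = 6) in fast-growing PNs, with a log2 fold change of 2.81 in all PNs (SE 0.63, adjusted p = 0.00473). An annotated gene on the opposite strand (*Fxyd3*) overlaps *Lgi4*. *Dlg4*, a scaffold that binds Kv1 subunits, rose by 1.31 (SE 0.36, adjusted p = 0.0157) and *Atp1b2*, a glial subunit of the sodium-potassium pump, by 0.84 (SE 0.27, adjusted p = 0.0309), both on the log2 scale.

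*Abcc9*, the regulatory subunit that pairs with the *Kcnj8* pore and its neighbor on chromosome 6 (chr6:142587862-142702315, minus strand), fell with it. It had 85.7, 160, and 180 CPM in controls, 35, 27.7, 41.6, 22.5, and 43.9 CPM in slow-growing PNs, and 13.4 to 26.5 CPM in fast-growing PNs, with a log2 fold change of -2.40 in all PNs (SE 0.28, edgeR adjusted p = 3.42e-05). No PN overlapped a control for either subunit of this channel. *Lrrc38*, a gamma subunit of the *Kcnma1* channel, was at 2.49, 2.02, and 5.32 CPM in controls and at 0 to 0.987 CPM in PNs (log2 fold change -4.37, SE 0.93, edgeR adjusted p = 0.00354), at few counts in PNs.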

How the data were processed

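Bulk RNA-seq counts of 3 control DRGs, 5 slow-growing PNs and 6 fast-growing PNs were used. Per the labels and the submitters' processing notes, the authors made libraries from whole-tissue RNA (Ovation RNA-Seq System v2), aligned reads to mm10 with TopHat2 2.0.9 and counted them with featureCounts 1.5.2. The deposited counts are whole numbers without normalization for 24062 genes. A deposited table of log2 values was not used.

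From the counts, groups were compared in R 4.3.3 with edgeR 4.0.16 (filterByExpr, TMM, quasi-likelihood test, Benjamini-Hochberg adjustment over all tested genes, threshold 0.05), with only the libraries of a comparison in the fit. The SE is the log2 fold change divided by the root of F. Levels are CPM with TMM-scaled library sizes over all 14 libraries. Promoters were RefSeq windows (GRCm38.p6), and positions and lengths came from GENCODE on GRCm38, the assembly of mm10. The main fits were also run on simulated counts without differences in tissue composition between libraries. The outcome of that run is not given here and does not bear on the results. Alternatives used DESeq2 1.42.0, limma 3.58.1, other scalings, filters and designs, covariates of marker scores (mean log2(CPM + 1)), and each library left out. The removal of a length and GC trend was added after the data had been seen.

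The members and lists were chosen with earlier results of these data known. Members were named where they passed in at least 1 comparison (in full, up to 8 in each direction by adjusted p) or belonged to a list of 24 subunits of nerve, glia and vessels. Members given only as counts in fast-growing PN 1191 or as exceptions were named after their values had been seen. Values of some members are not reported here. PCR reads are not independent molecules, so intervals and floors cover counting error only.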

Additional observations from a re-analysis of the deposited data

Results flagged for a closer look

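Among 34 genes in 2 PN groups, 68 sets of libraries were examined for a library far from the others of its group by Dixon's criterion. For normally distributed values, chance meets this criterion in about 1 set in 20. The rate for CPM values is not known, and the sets share the same libraries. Of the 68 sets, 7 met the criterion, each with a library at the highest end.

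In slow-growing PN 1198A, *Kcnj10* was at 217 CPM against 53.5 to 95.8 CPM in the other slow-growing PNs, and *Kcnn4* at 19.9 CPM against 7.23 to 9.73 CPM. Both values approached or entered the range of the fast-growing PNs. In slow-growing PN 1203, the library with the highest neuron marker sum, *Kcnmb1* was at 86.4 CPM against 21.0 to 35.4 CPM and *Kcnk18* at 19.3 CPM against 2.33 to 6.13 CPM. In fast-growing PN 1191, *Kcnj15* was at 12.8 CPM against 3.62 to 4.91 CPM. In fast-growing PN 1071, which had the highest skeletal muscle sum of the fast-growing PNs (2410 CPM), *Kcna7* was at 3.55 CPM against 0 to 0.892 CPM. In slow-growing PN 1079, *Kcnj14* was at 1.52 CPM against 0.193 to 0.526 CPM.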

How the results depend on the processing

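The count of called members in all PNs (14) became 8 at an adjusted p under 0.01, 1 with both muscle and fat scores as covariates and 22 with the neuron score, and 7 to 15 without a library. In slow-growing PNs (6), the same threshold gave 1, DESeq2 17, the muscle and fat scores 0, and leaving out a library 1 to 10. The higher counts there went with more calls over all genes: DESeq2 called 19.1% of members and 19.8% of all genes, and the fit without control DRG3, which gave the 10, 12.8% and 15.3%. In fast-growing PNs (17), the counts were 9 at the stricter threshold, 0 with the muscle and fat scores, 27 with the neuron score, and 12 to 17 without a library. Between fast-growing and slow-growing PNs (0), DESeq2 gave 10, the fit over all 14 libraries 3, and the neuron score 3. Leaving out a library gave 0 to 5 there. The members called with the neuron score were 3.9% of those tested, beside 1.88% of all genes in the same fit. The counts at the stricter threshold are given without a share over all genes. With muscle and fat scores, 3 falls in fast-growing PNs changed sign: *Kcnj15* (0.16), *Kcnk3* (0.19), and *Kcnj11* (1.51). The cause was not tested. Other counts stayed within 1.5 times.

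Over all alternatives and left-out libraries, 733 of the values of single genes kept their direction and side of the threshold, 116 lost it, 18 gained it, and 3 changed sign. No paired analysis was possible because the labels tie no library of a group to one of another group, and the replicate numbers only name libraries within their group. Sex per library, batch and dissection could not be modelled, and 3 controls limit every comparison with them.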

Other observations

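Genes of the same channel family stood at different levels in fast-growing PN 1191, the library nearly without neuron markers. Of the Kv7 subunits, *Kcnq3* was at 7.37% (2.39% to 17.2%, exact Poisson interval) of the median of the other fast-growing PNs, whereas *Kcnq5* was at 129% (112% to 148%). *Kcnq5* had 15.9 to 17.1 CPM in controls, 9.04 to 37.1 CPM in slow-growing and 9.80 to 27.9 CPM in fast-growing PNs, and passed in no comparison by edgeR (log2 fold change 0.06 in all PNs, SE 0.41, adjusted p = 0.932). Of the subunits of the channels activated by sodium or calcium, *Kcnt1* was at 92.4% and *Kcnma1* at 117%, while *Kcnmb1*, a beta subunit of the *Kcnma1* channel, was at 16.3% (12.2% to 21.3%) and *Kcnmb4*, another, at 44.3% (24.8% to 73.1%). These are values of 1 library, without a test.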
